A study of Mus musculus with 6 samples.

Results

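Probe sets for 55 genes of the Wnt pathway were examined, out of 17097 genes that the array platform names by a single symbol, or 96 of 45037 probe sets. The genes were chosen by name, with earlier results of these data known. These were every symbol beginning with Wnt, Fzd, Sfrp, Dkk or Tcf7, together with Lrp5, Lrp6, Lef1, Axin1, Axin2, Ctnnb1, Apc, Gsk3b, Wif1, Rspo1, Rspo3, Znrf3, Rnf43, Ror1 and Ror2. They comprised 19 ligands, 14 receptors and co-receptors, 9 genes of the antagonist families, 4 genes for R-spondins and the E3 ligases they act on, 5 genes for β-catenin and its destruction complex, 3 nuclear factors, and Fzd10os, a long non-coding RNA gene opposite Fzd10 that the name rule also takes in. Dkkl1, which is related to the Dkk antagonists in sequence and is known from sperm, entered through its name. Sfrp4 and Tcf7 were not analysed here, and 3 probe sets shared by Serinc3 and Sfrp1 were left out. A gene was represented by its brightest probe set, by the mean over the 6 arrays.

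The samples were RNA from 3 WT and 3 Klf3-/- mice, 1 mouse per array. All were untreated FVB/NJ males aged 12 weeks, housed at 22 °C on standard chow, and littermates from heterozygous crosses. Klf3, which encodes a transcriptional repressor that binds CACCC boxes, was disrupted in every tissue of the Klf3-/- animals, so the cells around the sorted population lacked it as well. The cells were sorted from the stromal vascular fraction (SVF) of inguinal subcut AT by a gate on high side scatter and on the surface markers Siglec-F, F4/80, CD11b and CD45, with dead cells removed, and the labels call them eosinophils.

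Wnt proteins are secreted lipid-modified ligands that bind Frizzled receptors together with the co-receptors LRP5 and LRP6. Binding stops a complex of Axin, APC and GSK3β from marking β-catenin for destruction, and β-catenin then enters the nucleus and activates genes with TCF and LEF factors. Some ligands, among them Wnt5a, act mostly through β-catenin-independent routes, and in adipose tissue Wnt signals are best known for restraining the conversion of preadipocytes into adipocytes.

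Array medians ranged from 30.3 to 56.5 in WT and from 35.4 to 58.7 in Klf3-/- mice, and the values below are log2 intensities after quantile normalisation between arrays. A gene was counted as above background when its mean over the 6 arrays exceeded 5.10, the 95th percentile of 44 olfactory receptor probe sets. Of a list of 10 eosinophil markers, 7 were measured and 0 lay above that level, Siglecf, Epx, Prg2, Il5ra and Ccr3 included, whereas 10 of 10 macrophage markers did. The label was therefore not borne out by these markers, and the cells are called the sorted cells here. The 6 Klf3 probe sets did not fall together: 5 gave higher values in all Klf3-/- mice than in any WT mouse, and 1 gave lower ones.

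Of the 55 Wnt genes, 27 (49.1%) lay above the olfactory receptor level, compared with 11115 of 17097 genes (65.0%). They included 5 of 5 genes for β-catenin and the destruction complex, 3 of 3 nuclear factors, 9 of 14 receptors and co-receptors and 5 of 9 antagonist family genes, but 4 of 19 ligands and 1 of 4 R-spondin and E3 ligase genes. In both genotypes the mean was above the level for 24 genes and below it for 27. Wnt2, Wnt4 and Wnt5a had a mean above it in Klf3-/- mice alone, and Wnt2b in WT mice alone. A probe set's brightness depends on its own probes, so genes are compared with the level and between genotypes but not with each other.

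**Figure D1:**
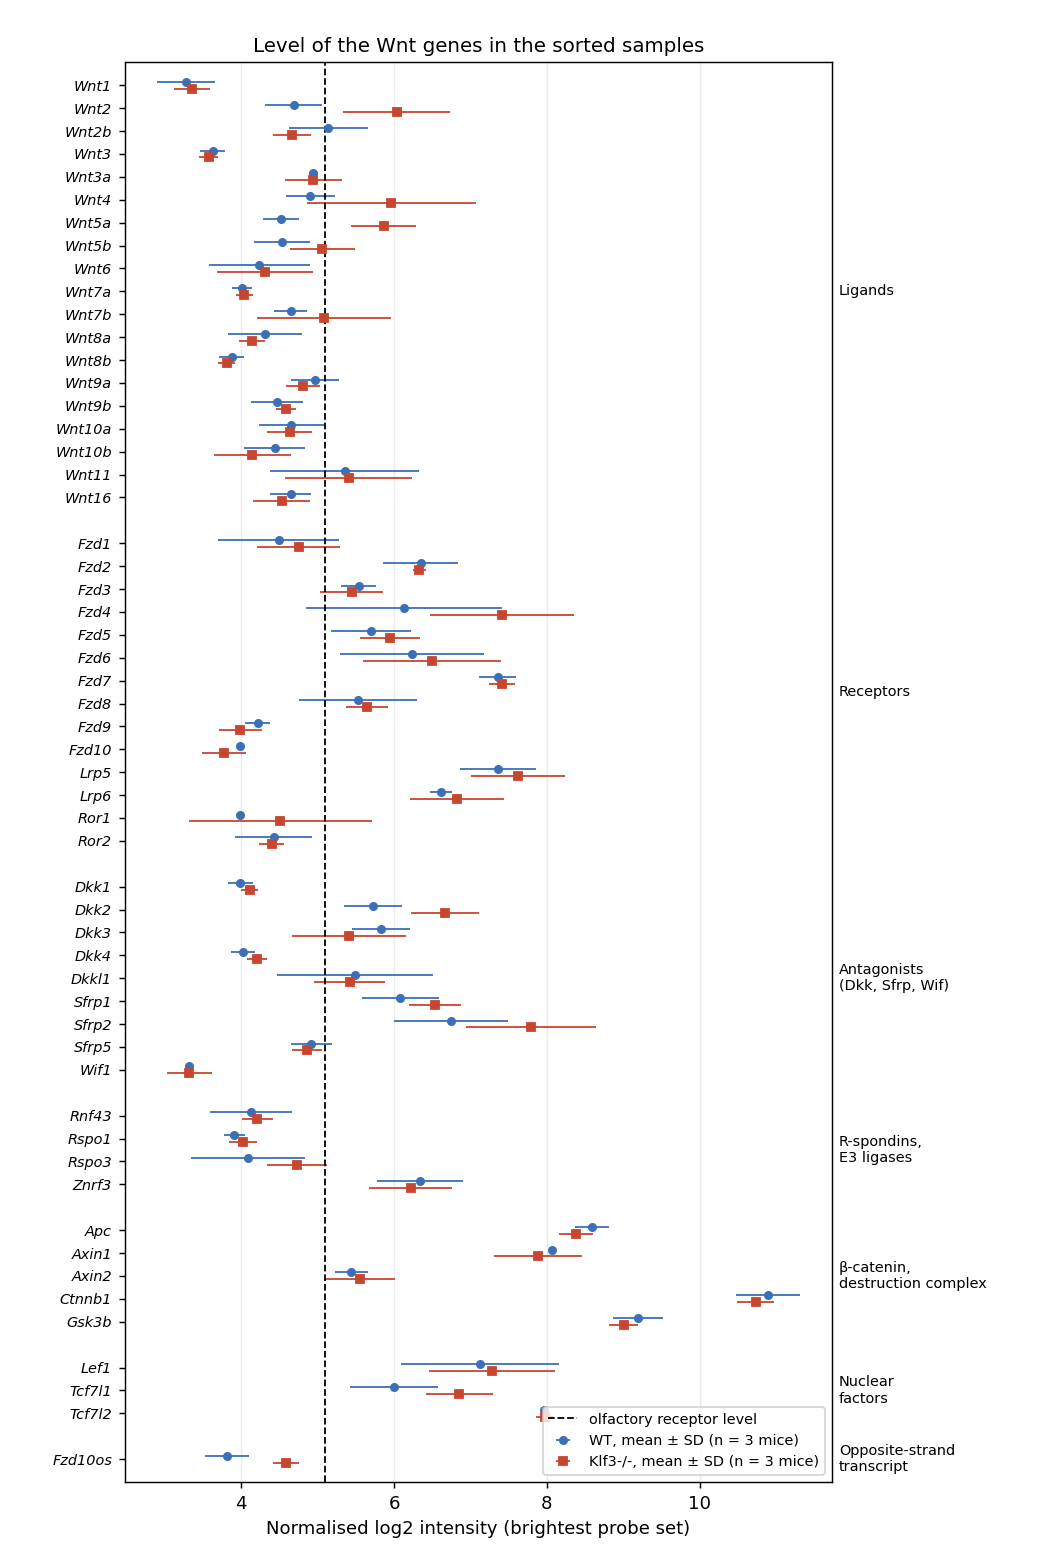
Mean normalised log2 intensity of the 55 Wnt genes, grouped by role and listed by name, in WT (circles) and Klf3-/- mice (squares), with bars for the SD over 3 mice each. The dashed line marks the background of 5.10 set by the olfactory receptors, and all 5 genes of β-catenin and its destruction complex lie to its right in both genotypes, and most ligands lie to its left.

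No Wnt gene passed an adjusted p of 0.05 in the comparison of Klf3-/- with WT mice (limma, Benjamini-Hochberg adjustment over 45037 probe sets), the smallest adjusted p being 0.663, and 0% of all probe sets passed. At an unadjusted p under 0.05, 5 Wnt genes were higher in Klf3-/- mice (Wnt5a, Wnt2, Dkk2, Tcf7l1 and Fzd10os) and 0 were lower, where 3.61% of all genes were higher and 2.47% lower. The same 5 genes were the ones in which every Klf3-/- array lay above every WT array, and in 0 Wnt genes did every Klf3-/- array lie below. Such separation was found in 4.84% of all genes upward and in 6.55% downward. With 3 arrays against 3 the exact two-sided permutation test cannot give a p below 0.1, which these 5 genes reached. The log2 fold change (Klf3-/- over WT) was positive for 33 Wnt genes and negative for 22, with a median of 0.08, and over all genes 44.8% were positive with a median of −0.04.

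**Figure D2:**
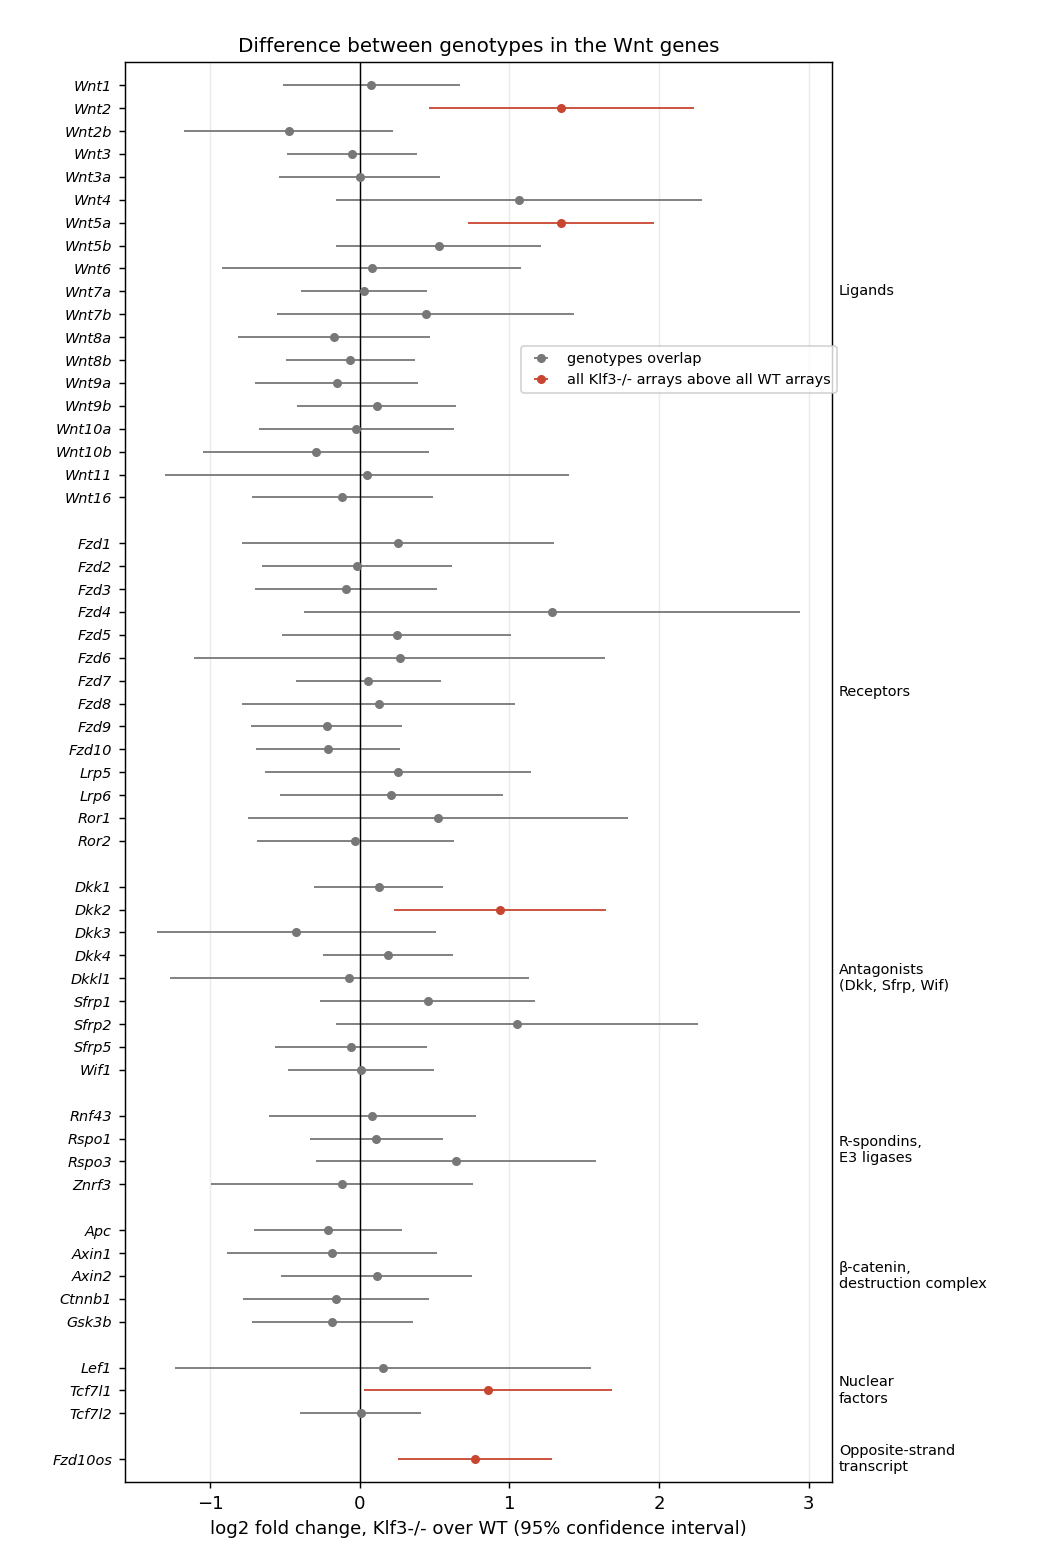
Log2 fold change of Klf3-/- over WT for the 55 Wnt genes by role, from limma on 3 arrays per genotype, with 95% confidence intervals as bars. The 5 genes in red are those with no overlap between the genotypes, and the widest interval among the receptors is that of Fzd4.

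The sequences just upstream of the transcription start are shown for 3 protein-coding genes of those 5. They are shown because KLF3 binds CACCC boxes and these genes were separated between the genotypes. The 3 genes are those with a window in the promoter set used here (mouse assembly GRCm38.p6). Wnt5a and Fzd10os have no window in that set, although both symbols were found in RefSeq. Each run is the 250 bases before the start, 5′ to 3′ on the gene's strand, with CACCC or its reverse complement GGGTG in capitals. The Wnt2 window lies on the minus strand at chr6:18030446-18030695, the Dkk2 window on the plus strand at chr3:132085042-132085291, and the Tcf7l1 window on the minus strand at chr6:72789046-72789295.
Wnt2: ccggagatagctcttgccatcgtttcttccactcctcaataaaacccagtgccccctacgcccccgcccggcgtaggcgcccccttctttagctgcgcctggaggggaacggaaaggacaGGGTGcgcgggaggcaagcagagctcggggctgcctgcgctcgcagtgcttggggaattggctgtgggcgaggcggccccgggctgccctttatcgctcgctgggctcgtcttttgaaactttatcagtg
Dkk2: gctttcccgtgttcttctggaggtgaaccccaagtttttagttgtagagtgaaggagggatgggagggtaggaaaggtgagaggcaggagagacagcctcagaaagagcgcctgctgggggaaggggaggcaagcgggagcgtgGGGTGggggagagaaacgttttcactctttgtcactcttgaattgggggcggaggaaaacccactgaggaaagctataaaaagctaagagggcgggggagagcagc
Tcf7l1: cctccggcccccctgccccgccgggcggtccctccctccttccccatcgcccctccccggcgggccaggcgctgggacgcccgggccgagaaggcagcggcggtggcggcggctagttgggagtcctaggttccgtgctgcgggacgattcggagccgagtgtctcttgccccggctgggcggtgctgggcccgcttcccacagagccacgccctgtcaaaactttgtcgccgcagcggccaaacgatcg
The Wnt2 and Dkk2 windows each held 1 CACCC match, on the opposite strand, and the Tcf7l1 window held 0. For CTTTG, the core of the TCF and LEF motif, or its reverse complement CAAAG, the Dkk2 and Tcf7l1 windows each held 1 match and the Wnt2 window 0. CACCC on either strand was present in 52.0% of 32851 windows of this length in that set and in 33 of 46 windows (71.7%) of the 37 Wnt genes it holds. The Wnt gene windows were also richer in G and C, with a median of 66.6% compared with 52.4% over all windows. CTTTG was present in 48.6% of all windows and 50% of the Wnt gene windows. A match of 5 letters is a description of the sequence and was not tested for binding.

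Among the ligands, Wnt5a and Wnt2 lay below the olfactory receptor level on every WT array and above it on every Klf3-/- array. The highest olfactory receptor probe set, however, had a mean of 6.26, above every Wnt5a value and above the Wnt2 mean in Klf3-/- mice. Wnt5a, a ligand of β-catenin-independent signalling through Frizzled and ROR receptors, measured 4.34, 4.44 and 4.79 in WT mice 1 to 3 and 5.38, 6.16 and 6.05 in Klf3-/- mice 1 to 3. The genotypes did not overlap, and the lowest Klf3-/- value, in mouse 1, stood above the highest WT value, in mouse 3. The means were 4.52 ± 0.23 and 5.86 ± 0.42 (SD, n = 3), a log2 fold change of 1.34 (SE 0.26, 95% CI 0.72 to 1.96, adjusted p = 0.663 by limma). Since WT was not above background, the difference is given as at least 1.70-fold, the Klf3-/- mean set against the background level on each WT array. Here and below, such a value comes from the means and allows only for the unknown WT level under background. It leaves out the spread between mice and is not a confidence limit. On the deposited linear scale the same probe set read 17.7, 28.2 and 20.6 in WT and 45.4, 104 and 52.8 in Klf3-/- mice. A second Wnt5a probe set, whose mean over the 6 arrays was below the level, was above it on 0 WT arrays and 2 Klf3-/- arrays. Its genotypes did not overlap, and the difference was at least 1.94-fold against the background level.

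Wnt2, a ligand that acts through β-catenin and is known from lung and vascular development, measured 4.98, 4.82 and 4.26 in WT and 5.28, 6.65 and 6.17 in Klf3-/- mice. The arrays did not overlap, although Klf3-/- mouse 1 stood close to the WT mice. The means were 4.69 ± 0.38 and 6.03 ± 0.70 (SD, n = 3), a log2 fold change of 1.35 (SE 0.38, 95% CI 0.46 to 2.23, adjusted p = 0.849 by limma). By the means alone, the difference was at least 1.91-fold against the background level. Between mice of the same number the difference was 0.30, 1.83 and 1.91.

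Wnt4, a ligand of kidney, gonad and mammary development, measured 5.12, 5.06 and 4.53 in WT and 5.84, 4.94 and 7.13 in Klf3-/- mice. Klf3-/- mouse 2 lay within the WT range and Klf3-/- mouse 3 far above it. The log2 fold change was 1.06 (SE 0.52, adjusted p = 0.910 by limma) and 0.48 without Klf3-/- mouse 3. A second Wnt4 probe set was separated between the genotypes, with a log2 fold change of 0.68 (SE 0.29). Wnt11, known from gastrulation and kidney branching, had means of 5.36 ± 0.97 in WT and 5.41 ± 0.83 in Klf3-/- mice (SD, n = 3), a difference well within the spread between mice. Wnt2b had means of 5.14 ± 0.52 and 4.67 ± 0.24 (SD, n = 3), and its log2 fold change of −0.48 (SE 0.30) was the most negative of the 55 genes. The remaining 14 ligands, including Wnt10b, the ligand best known for blocking adipogenesis, and Wnt3a, had means below the level in both genotypes.

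**Figure D3:**
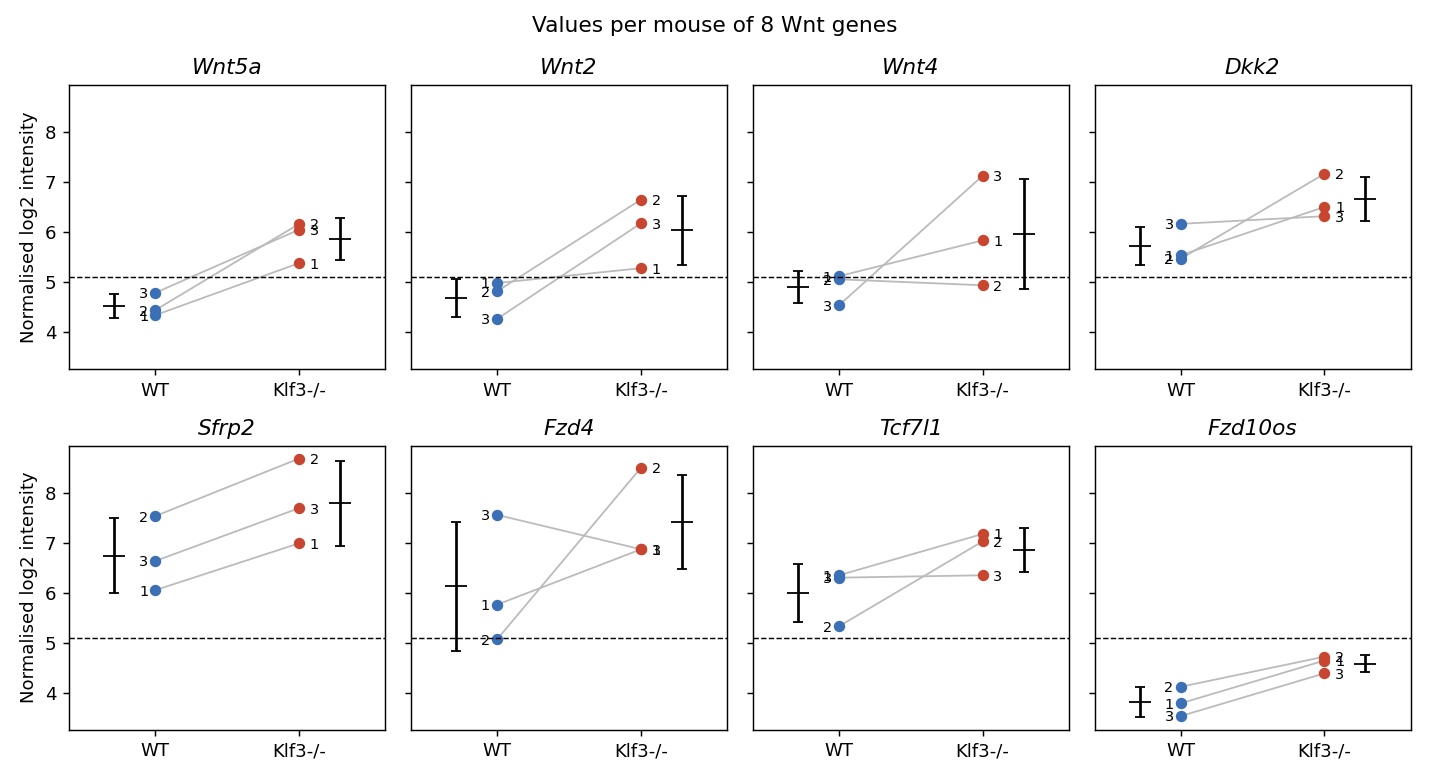
Normalised log2 intensity of 8 Wnt genes in each mouse, WT on the left and Klf3-/- on the right of each panel, with mice of the same replicate number joined by a grey line, black bars for mean ± SD (n = 3) and the dashed line at the olfactory receptor level of 5.10. Wnt5a, Wnt2, Dkk2, Tcf7l1 and Fzd10os show no overlap between the genotypes, the 3 lines of Sfrp2 are nearly parallel, and Fzd4 and Wnt4 have 1 line that falls.

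Of the receptors and co-receptors, 9 had a positive and 5 a negative log2 fold change (median 0.17), and 0 were separated between the genotypes. Fzd4, a receptor for Wnt ligands and for norrin in blood vessel growth, measured 5.77, 5.07 and 7.56 in WT and 6.87, 8.50 and 6.87 in Klf3-/- mice. WT mouse 3 exceeded 2 of the 3 Klf3-/- mice, so the genotypes overlapped. The means were 6.13 ± 1.29 and 7.41 ± 0.94 (SD, n = 3), with a log2 fold change of 1.28 (SE 0.70, 95% CI −0.38 to 2.94, adjusted p = 0.910 by limma). It ranged from 0.74 without Klf3-/- mouse 2 to 2.00 without WT mouse 3, where the adjusted p was 0.822. A second Fzd4 probe set gave 1.66 (SE 1.09).

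Lrp5, one of the paired co-receptors that carry the signal to the destruction complex, measured 7.02, 7.12 and 7.94 in WT and 7.50, 7.07 and 8.28 in Klf3-/- mice. Mouse 3 was the highest of either genotype, and the genotypes overlapped, with a log2 fold change of 0.26 (SE 0.38, adjusted p = 0.969 by limma). Its partner Lrp6 had means of 6.62 ± 0.15 and 6.83 ± 0.62 (SD, n = 3). Fzd7, a Frizzled of stem cells and development, was close between genotypes at 7.35 ± 0.25 and 7.41 ± 0.17 (SD, n = 3), with a 95% CI of −0.43 to 0.54 for the log2 fold change. By their brightest probe sets, the other Frizzled receptors above the level differed by no more than 0.27 in either direction. The log2 fold change was 0.27 for Fzd6 (SE 0.58), 0.24 for Fzd5 (SE 0.33), 0.12 for Fzd8 (SE 0.39), −0.02 for Fzd2 (SE 0.27) and −0.09 for Fzd3 (SE 0.26). The other Fzd2 probe sets, both above the level, gave 0.26 (SE 0.32) and −0.52 (SE 0.38). Ror1 and Ror2, the receptor tyrosine kinases through which Wnt5a can signal, and Fzd1, Fzd9 and Fzd10 lay below the level.

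Among the secreted antagonist families, 6 genes had a positive and 3 a negative log2 fold change (median 0.13). Dkk2, which binds LRP5 and LRP6 and can block or weakly activate them, measured 5.54, 5.47 and 6.17 in WT and 6.50, 7.17 and 6.32 in Klf3-/- mice. All Klf3-/- values stood above all WT values, but WT mouse 3 and Klf3-/- mouse 3 were only 0.15 apart. The means were 5.72 ± 0.38 and 6.66 ± 0.45 (SD, n = 3), a log2 fold change of 0.94 (SE 0.30, 95% CI 0.23 to 1.65, adjusted p = 0.863 by limma).

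Sfrp2, a secreted Frizzled-related protein that binds Wnt ligands and is made by fibroblasts, measured 6.06, 7.54 and 6.64 in WT and 6.99, 8.69 and 7.69 in Klf3-/- mice. WT mouse 2 exceeded Klf3-/- mouse 1, so the genotypes overlapped, whereas the Klf3-/- mouse was higher by 0.94, 1.15 and 1.06 in the 3 pairs of the same replicate number. The log2 fold change was 1.05 (SE 0.51, adjusted p = 0.910 by limma). With the replicate number as a block the unadjusted p was 0.0018 and the adjusted p 0.572, still above the threshold. Sfrp1, from the same family, had means of 6.08 ± 0.50 and 6.54 ± 0.34 (SD, n = 3), a log2 fold change of 0.45 (SE 0.31), and 3 probe sets it shares with Serinc3 do not enter that value. Dkk3, a divergent member that does not act on LRP6 as the other Dkk proteins do, had a log2 fold change of −0.42 (SE 0.40), and Dkkl1 one of −0.07 (SE 0.51). A second Dkk3 probe set above the level ran the other way, at 0.26 (SE 0.56). Dkk1, Dkk4, Sfrp5 and Wif1 lay below the level in both genotypes.

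Of the genes that set how many Frizzled receptors stay on the cell surface, Znrf3, an E3 ligase that removes them, was above the level, with means of 6.34 ± 0.56 in WT and 6.22 ± 0.54 in Klf3-/- mice (SD, n = 3). Its homologue Rnf43 and the R-spondins, which hold the ligases back, were below it. Rspo3 measured 3.23, 4.42 and 4.61 in WT and 4.59, 5.17 and 4.42 in Klf3-/- mice, of which Klf3-/- mouse 2 alone passed the level. Its log2 fold change was 0.64 (SE 0.40), and 0.21 without WT mouse 1.

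The genes for β-catenin and the destruction complex were above the level on nearly every array and differed little between genotypes, with 1 positive and 4 negative log2 fold changes (median −0.19). Ctnnb1, the gene for β-catenin, measured 11.02, 10.43 and 11.23 in WT and 11.01, 10.59 and 10.59 in Klf3-/- mice. The genotypes overlapped, with a log2 fold change of −0.16 (SE 0.26, 95% CI −0.78 to 0.46). The log2 fold change was −0.21 for Apc (SE 0.21), −0.19 for Axin1 (SE 0.30) and −0.19 for Gsk3b (SE 0.23). A second Axin1 probe set above the level ran the other way, at 0.19 (SE 0.21). The 4 Apc probe sets did not all run the same way, from −0.52 to 0.08, and 1 of them was lower in every Klf3-/- array. Of the 4 Gsk3b probe sets, 2 were positive, at 0.30 and 0.20. Axin2, a scaffold of the complex that β-catenin itself induces and that is often read as a measure of pathway activity, had means of 5.44 ± 0.22 and 5.55 ± 0.46 (SD, n = 3), and its other probe set gave −0.68 (SE 0.51).

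All 3 nuclear factors had log2 fold changes above 0, and 1 of them was separated between the genotypes. Tcf7l1, the family member known mainly as a repressor of Wnt targets, measured 6.35, 5.33 and 6.31 in WT and 7.18, 7.03 and 6.35 in Klf3-/- mice. Klf3-/- mouse 3 was level with WT mice 1 and 3 and above them by less than 0.1, so the separation rests on a narrow gap, which is lost when arrays are centred on their medians instead. The means were 6.0 ± 0.58 and 6.85 ± 0.44 (SD, n = 3), a log2 fold change of 0.86 (SE 0.35, 95% CI 0.03 to 1.69, adjusted p = 0.901 by limma), and its second probe set gave 0.35 (SE 0.34). The unadjusted p was 0.044, and 0.053 with the replicate number as a block (limma), and the log2 fold change was 0.53 without WT mouse 2. Tcf7l2, the TCF linked to adipose and islet biology, was nearly the same in all 6 mice, at 7.97 ± 0.05 and 7.97 ± 0.12 (SD, n = 3), and its log2 fold change of 0.01 had a 95% CI of −0.40 to 0.41. Lef1, a lymphoid factor, ranged from 5.95 to 7.88 in WT and from 6.46 to 8.10 in Klf3-/- mice, with a log2 fold change of 0.15 (SE 0.59).

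Fzd10os lay below the level on every array, at 3.79, 4.12 and 3.54 in WT and 4.65, 4.72 and 4.39 in Klf3-/- mice, so its values are differences at background and not folds of expression. The arrays did not overlap between genotypes, but a second Fzd10os probe set gave a log2 difference of −0.21 (SE 0.21), against 0.77 (SE 0.22, adjusted p = 0.849 by limma) for the brightest.

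Within a genotype, several of these genes were highest or lowest on the same arrays as markers of other cell types. In bulk RNA, fewer cells of a type and less RNA per cell cannot be told apart. Of 14 stromal fibroblast and preadipocyte markers, 12 were measured and 12 lay above the level, and 11 had positive log2 fold changes with a median of 0.83, among them Dpt (1.86), Mfap5 (1.48) and Cd34 (1.34). At an unadjusted p under 0.05 (limma), 5 of the 12 were higher in Klf3-/- mice and 0 lower, where 3.61% of all genes were higher. In 4 every Klf3-/- array lay above every WT array, as in 4.84% of all genes. The summed normalised intensity of the stromal markers ranged from 10469 to 17703 in WT and from 16827 to 27615 in Klf3-/- mice. Their mean log2 intensity was 7.92, 8.37 and 8.58 in WT and 8.76, 9.91 and 8.73 in Klf3-/- mice. Every Klf3-/- mouse thus stood above every WT mouse, and Klf3-/- mouse 2 stood highest. Klf3-/- mouse 2 was also the highest array for Wnt5a, Wnt2, Dkk2, Sfrp2 and Fzd4. Without it, their log2 fold changes were 1.19, 1.04, 0.69, 0.60 and 0.74, in that order. Among WT mice the stromal mean was highest in mouse 3, as were Wnt5a, Dkk2 and Fzd4. Wnt2 was lowest in that mouse, and Sfrp2 was highest in WT mouse 2. The part of stromal RNA in these values was not tested. Of other lists, all 3 smooth muscle and pericyte markers measured had negative log2 fold changes (median −0.94). So did 5 of 6 endothelial markers, with 1 positive. Klf3-/- mouse 2 had the lowest mean of both lists.

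Wnt4 followed other arrays. Of 6 epithelial markers, 6 were measured and 5 lay above the level, and their summed intensity was 298, 471 and 274 in WT and 1928, 404 and 4144 in Klf3-/- mice. Klf3-/- mice 1 and 3 were thus highest for the epithelial markers and for Wnt4. Among WT mice the epithelial markers were highest in mouse 2, whereas Wnt4 was highest in mouse 1 (5.12, against 5.06 in mouse 2). The log2 fold change was positive for 4 of these markers and negative for 2, with a median of 1.57 and a range of −0.16 (Krt5) to 4.51 (Krt18), and 1 of them, Cdh1, was separated between the genotypes. The 6 T and innate lymphoid markers measured, out of 8 listed, all lay above the level, with a mean log2 intensity of 9.52, 8.05 and 8.77 in WT and 9.48, 8.64 and 7.63 in Klf3-/- mice, and Lef1 was likewise lowest in WT mouse 2 among WT and in Klf3-/- mouse 3 among Klf3-/- mice. The part of either cell type in these values was not tested.

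**Figure D4:**
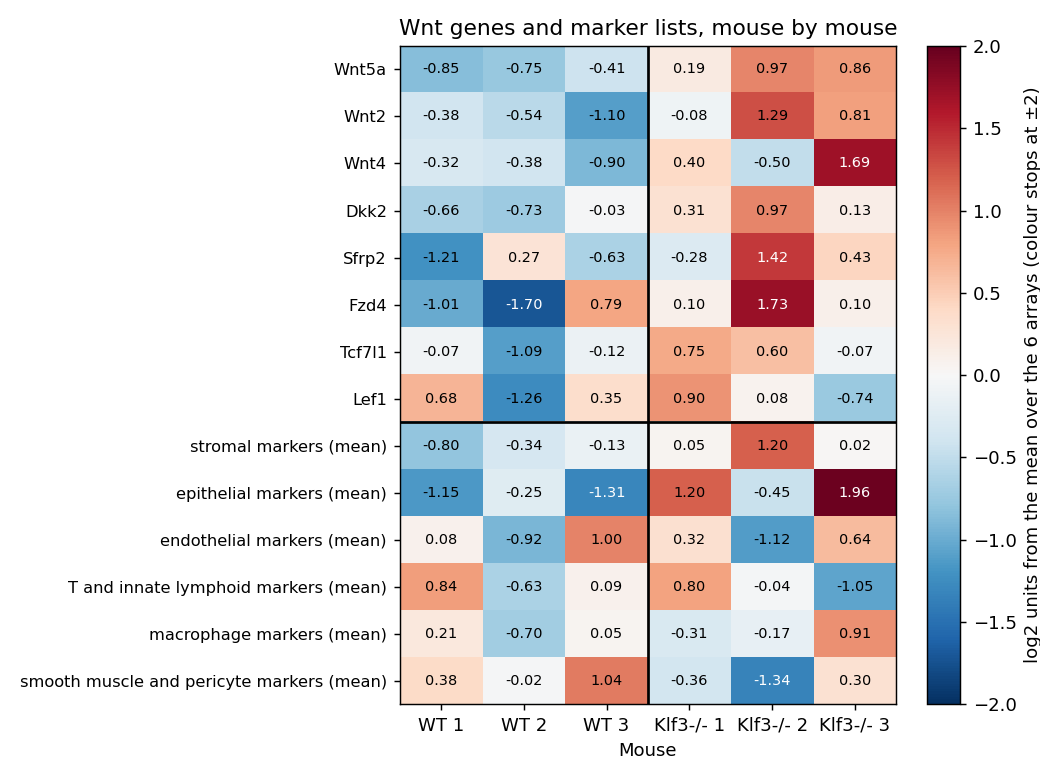
Difference of each array from the mean over the 6 arrays, in log2 units, for 8 Wnt genes (above the line) and for the mean log2 intensity of 6 lists of cell type markers (below it), with colour from blue (low) to red (high) and 1 column per mouse. Klf3-/- mouse 2 is the reddest column for Fzd4 (1.73), Sfrp2 (1.42) and the stromal markers (1.20), and Klf3-/- mouse 3 for Wnt4 (1.69) and the epithelial markers (1.96).

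Beyond these families, 150 other genes of the pathway were measured in 6 overlapping lists, and 119 of them lay above the level. At an adjusted p of 0.05, 0 passed (limma), and without adjustment 11 were higher and 2 lower in Klf3-/- mice (p under 0.05). Over all genes the shares at that threshold were 3.61% higher and 2.47% lower, against which the counts of each list here are to be read. The log2 fold change was positive for 86 and negative for 64, with a median of 0.04.

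Of 14 genes for Wnt secretion and processing, 13 lay above the level, and 0 had an unadjusted p under 0.05. Those with the smallest p were Gpc4, a glypican that holds Wnt at the cell surface, at 0.64 (SE 0.32), and Wls, the carrier that takes Wnt to the membrane, at 0.53 (SE 0.29), as log2 fold changes. Of 22 other secreted or membrane modulators, 1 was higher and 1 lower: Apcdd1, a membrane inhibitor, at 0.93 (SE 0.28), and Bambi, a pseudoreceptor that joins Wnt and TGF-β signalling, at −0.99 (SE 0.31). Of 38 intracellular transducers and cadherins, 3 were higher and 0 lower, namely Nkd2, a Dishevelled-binding inhibitor, at 1.21 (SE 0.31), and the cadherins Cdh1 at 1.91 (SE 0.61) and Cdh2. Cdh2 was not above background on any WT array and its genotypes overlapped, so its difference is given as at least 1.28-fold. Cdh1 is also 1 of the epithelial markers above.

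Of 24 nuclear partners, 1 was higher and 0 lower, Sox9, which was not above background on any WT array, overlapped between genotypes and differed by at least 1.21-fold. Of 16 planar polarity genes, 1 was higher and 0 lower, Ankrd6, the homologue of Diversin, also below background on every WT array and at least 1.18-fold higher in Klf3-/- mice. Of 43 textbook target genes of Wnt and β-catenin, by the same measure 8 were higher and 1 lower, with a median of 0.11. The smallest p values belonged to Fn1, the gene for fibronectin, at 2.38 (SE 0.46, adjusted p = 0.663 by limma), Ccn5 at 1.52 (SE 0.35), Fst, the gene for follistatin, at 1.91 (SE 0.48), and Nkd2. Cldn1, a tight junction gene, had a log2 fold change of −1.52 (SE 0.44). Fn1, Ccn5 and Fst are also expressed by fibroblasts, and the stromal marker values above move the same way, whose part was not tested. Axin2, a target counted among the 55 genes, had a log2 fold change of 0.11 (SE 0.27).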

How the data were processed

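RNA of sorted SVF cells from 3 WT and 3 Klf3-/- mice was put by the authors on Affymetrix HT MG-430PM arrays after amplification (3′ IVT Pico Kit). The deposited values are linear intensities from Partek Genomics Suite; RMA is named by the study, without its steps. The largest array median was 1.94 times the smallest and quantiles differed between arrays, so log2 intensities were quantile-normalised between arrays. Genotype was fitted with limma 3.58.1 (lmFit, eBayes) in R 4.3.3, with Benjamini-Hochberg adjustment over 45037 probe sets. The test was tried first on simulated data with the residual spread of these arrays. At an adjusted p under 0.05 it called 5% of probe sets shifted by 1 log2 unit and 57.2% of those shifted by 2. Most differences of 1 log2 unit would thus be missed. The study's two-way ANOVA was replaced because its second factor is not given. The number of arrays limits the precision, and p-values measure the spread between these mice.

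Gene symbols came from the platform annotation (28898 probe sets with 1 symbol, 551 with several, 15588 with none), and 55 of 55 Wnt symbols were found in RefSeq (GRCm38.p6). The members and lists were chosen with earlier results of these data known. Values per array are given for genes with an unadjusted p under 0.05, and in each role for the gene with the highest mean and the one with the smallest p. Apc, Znrf3 and Tcf7l2 are exceptions, with group means or log2 fold changes only. Deviations from the genotype mean correlated within replicate numbers (r = 0.17, 0.23 and 0.21), and the labels call the mice litter-matched. The main fit and the permutation test nevertheless had genotype as their only term. The numbers were taken as pairs only in the replicate block and in differences between mice of the same number. Alternatives were values as deposited, median-centred arrays, a replicate block, limma with trend and robust options, leaving out each array, analysis of variance, filters on dim or cross-hybridising probe sets, the mean of a gene's probe sets and other background levels. Figures were drawn with matplotlib 3.10.9.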

Additional observations from a re-analysis of the deposited data

How the results depend on the processing

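In all 14 alternatives 0 Wnt genes passed the adjusted threshold, and in the main fit 0 passed at an adjusted p of 0.25. Of 193 log2 fold changes of 14 named genes under these alternatives, 184 kept their direction and 9 reversed, all near 0: on the values as deposited, whose median over all probe sets was 0.13 against −0.03 after normalisation, Apc was 0.0032 and Znrf3 0.16, and leaving out 1 array gave −0.040 to 0.075 for Tcf7l2, −0.39 to 0.0072 for Ctnnb1, −0.43 to 0.12 for Znrf3 and −0.073 to 0.55 for Lrp5. Wnt5a stayed between 1.19 and 1.84 and Wnt2 between 1.04 and 1.72.

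Analysis of variance and the mean of all probe sets each left 3 Wnt genes higher by unadjusted p, Wnt5a and Wnt2 in both, and with the mean 3 were separated upward (Wnt5a, Wnt2 and Dkk2). Median-centring separated 1 Wnt gene downward, Apc, and Tcf7l1 was then no longer separated. The share of all genes separated is not given for the mean of probe sets or for median-centring, so these counts have none to be read against. Among the other pathway genes the number lower was 0 as deposited and 1 by analysis of variance. Against the highest and the median olfactory receptor probe set, 16 and 49 Wnt genes were above background. No ligand was among the 16, and neither was Dkk2.

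Leaving out 1 array gave 4 to 6 Wnt genes higher and 0 to 1 lower by unadjusted p (1 without WT mouse 2 and without Klf3-/- mouse 3), 5 to 11 separated upward (9 without WT mouse 3, 8 without Klf3-/- mouse 1 and 11 without Klf3-/- mouse 2) and 0 to 4 downward (4 without WT mouse 2, 2 without Klf3-/- mouse 2 and 3 without Klf3-/- mouse 3); over all genes these settings separated 8.13% to 10.1% upward and 10.8% to 14.8% downward. For the other pathway genes the ranges were 11 to 16 higher and 2 to 4 lower (4 without WT mouse 2).

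With the replicate block 0 Wnt genes passed the adjusted threshold. By unadjusted p 5 were higher and 0 lower, with Sfrp2 in and Tcf7l1 out. Of the other pathway genes 15 were higher and 4 lower. The share of all genes passing by unadjusted p is given for the main fit only. The counts by unadjusted p under the block and the other alternatives therefore have no share of all genes to be read against. The dimness of most ligands limits what these arrays can show of them.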
